A study of Mus musculus with 6 samples.

Results

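TNF ligands, TNF receptors and the Traf adaptors that carry their signals were compared between MR 4-25, a mannitol-recovered line, and Neo, the parental line, both lines of the mouse T lymphoma S49. The members were the genes whose name on the array began with Tnfrsf, Tnfsf, Tnfaip or Traf and a number, together with Tnf, Lta, Ltb, Ltbr, Tradd, Ripk1 and Ripk3. This gave 60 genes with 80 probes, of 27670 genes with 41174 probes on the array. By role they were 15 ligands, 23 receptors, 7 Traf adaptors, 3 Traf3-binding proteins, 3 death-domain adaptors or kinases, 8 Tnfaip genes and Psmg2. Psmg2 entered through its older name Tnfsf5ip1 and is a proteasome assembly chaperone. The array's names Tnfrsf7, Tnfsf7 and Tnfrsf19l are now Cd27, Cd70 and Relt, which are used here.

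Each line had 3 samples, 1 Agilent array per sample with the single dye Cy3, and both lines are labelled as untreated. S49 is a lymphoma of T cells that grows in suspension; MR 4-25 is 1 line recovered from mannitol, an osmotic agent, and any difference may be particular to that line. The sources used here do not say whether the 3 samples of a line were separate cultures, so p-values here refer to the spread among the 3 samples, part or all of which may be technical. The 11 T cell markers were well above background on all 6 arrays.

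TNF ligands are mostly trimers held in the membrane or shed from it, and they gather their receptors into clusters. The clustered receptors recruit Traf adaptors, which build ubiquitin chains and activate NF-kB and stress kinases, while receptors with a death domain can instead engage Tradd, Fadd and caspases. In T cells several receptors of the family, among them 4-1BB, OX40, GITR and CD27, are known as costimulatory receptors that prolong activation and survival.

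Of the 60 members, 51 were measured, that is, well above background on 3 or more arrays, as were 21336 genes in all. Values are log2 signals relative to the array's 75th percentile, differences are MR 4-25 minus Neo on the log2 scale, and a gene passed the test at an adjusted p under 0.05 from limma over all 21336 genes. Tnfrsf19, Tnfrsf9 and Traf1 rose in MR 4-25, Tnfrsf13b fell, and 47 members did not pass. Over all genes, 0.675% rose and 0.558% fell, 1.23% in all, beside 4 of 51 members, or 7.84%. The arrays measured RNA of whole cultures, in which fewer cells with a transcript and less of it per cell cannot be told apart.

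The probes behind these 4 genes come first, because each value is the signal of 1 such probe and the probes of a gene did not always move together. Each line gives the last 30 of the probe's 60 bases as the array's annotation holds them, and capitals mark runs of at least 5 identical bases.
Traf1 probe: ctggactgagttcctatgttaacagacacg
Tnfrsf9 brightest probe: tatttgtctttaccTTTTTTaaatcTTTTT
Tnfrsf9 other probe: gctttcagcctccaagcttctgctagtcta
Tnfrsf19 brightest probe: ttttgaatcagtcaggtcaagtcatgtgtt
Tnfrsf19 other probe: ctacttagaatacaagatgcaggaaaacga
Tnfrsf13b brightest probe: gtggctttaaaagtctgctcactagaaccc
Tnfrsf13b other probe: gaggctaagtagcgaccagctgactctcta
On build mm7 the array's annotation placed the Traf1 probe at chr2:34950673-34950732, on the reverse strand. The brightest Tnfrsf9 probe lay at chr4:149934539-149934598 on the forward strand and the other at chr4:149935604-149935663. The brightest Tnfrsf19 probe lay at chr14:55831784-55831843 on the reverse strand and the other at chr14:55842126-55842185. The brightest Tnfrsf13b probe lay at chr11:61230555-61230614 on the forward strand, and the other spanned chr11:61223024-61228432, more than its own 60 bases. The brightest Tnfrsf9 probe holds 2 runs of T and fewer G and C bases than the other. Which exon or UTR each probe lies in was not analysed here.

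Among the ligands, none of the 11 that were measured passed the test, and the members with the largest differences were higher in MR 4-25. Lta, which encodes lymphotoxin alpha, a secreted ligand of both TNF receptors, had -3.91, -4.68 and -4.50 in MR 4-25 against -6.01, -5.39 and -5.74 in Neo. Every MR 4-25 array lay above every Neo array, although MR 4-25 3 and Neo 1 were not well above background. The difference was 1.35 ± 0.29 (SE, n = 3 per line), with an adjusted p of 0.131 from limma. Its size depended on the processing, at 0.36 with normexp background correction and quantile normalization (limma adjusted p = 0.191).

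Tnfsf4, which encodes the ligand of OX40, had 0.91, -0.33 and 1.07 in MR 4-25 against -1.26, -1.97 and 0.00 in Neo. Neo 3 lay above MR 4-25 2, so the lines overlapped. The difference was 1.63 ± 0.64 (SE, n = 3 arrays a line; adjusted p by limma = 0.376). Tnfsf13b, which encodes the B cell survival factor BAFF, had -1.91, -1.77 and -1.11 in MR 4-25 against -4.89, -1.92 and -2.09 in Neo. The lines did not overlap, but Neo 1 stood far below the other 5 arrays, and the difference of 1.37 ± 0.87 had an adjusted p of 0.602 (limma, SE, n = 3 per line). Its other probe was well above background on 2 Neo arrays and on 0 MR 4-25 arrays, too few to be measured.

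Tnf itself had -1.74, -1.79 and -3.06 in MR 4-25 against -1.84, -1.76 and -3.44 in Neo. The lines overlapped, and both arrays of slide 2, MR 4-25 3 and Neo 3, were below the 4 arrays of slide 1. The difference was 0.15, with a 95% interval of -1.41 to 1.71, and the adjusted p was 0.944 (limma). Ltb, whose product joins lymphotoxin alpha in a membrane-bound trimer, had -1.03, -1.50 and -1.42 in MR 4-25 against -2.17, -1.99 and -1.42 in Neo. Neo 3 fell among the MR 4-25 arrays, and the difference of 0.55 had an adjusted p of 0.479 (limma).

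The other 6 measured ligands had differences from -0.68 for Tnfsf13, which encodes APRIL, to 0.34 for Tnfsf8, the CD30 ligand, and all 6 overlapped between lines. They also included Cd70, the ligand of CD27, Tnfsf10, which encodes the death ligand TRAIL, Tnfsf14, which encodes LIGHT, and Tnfsf15, which encodes TL1A. Tnfsf13 was well above background on only 1 MR 4-25 array and 2 Neo arrays, so its difference has no exact size. The remaining 4 ligands were not measured. Tnfsf11, which encodes RANKL, was well above background on MR 4-25 1 and MR 4-25 2, at -2.97 and -5.16, and on 0 Neo arrays. Tnfsf9, the ligand of 4-1BB, and Tnfsf12, which encodes TWEAK, were each well above background on 1 MR 4-25 array and on 0 Neo arrays. Tnfsf18, the ligand of GITR, was not well above background on any array.

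**Figure D1:**
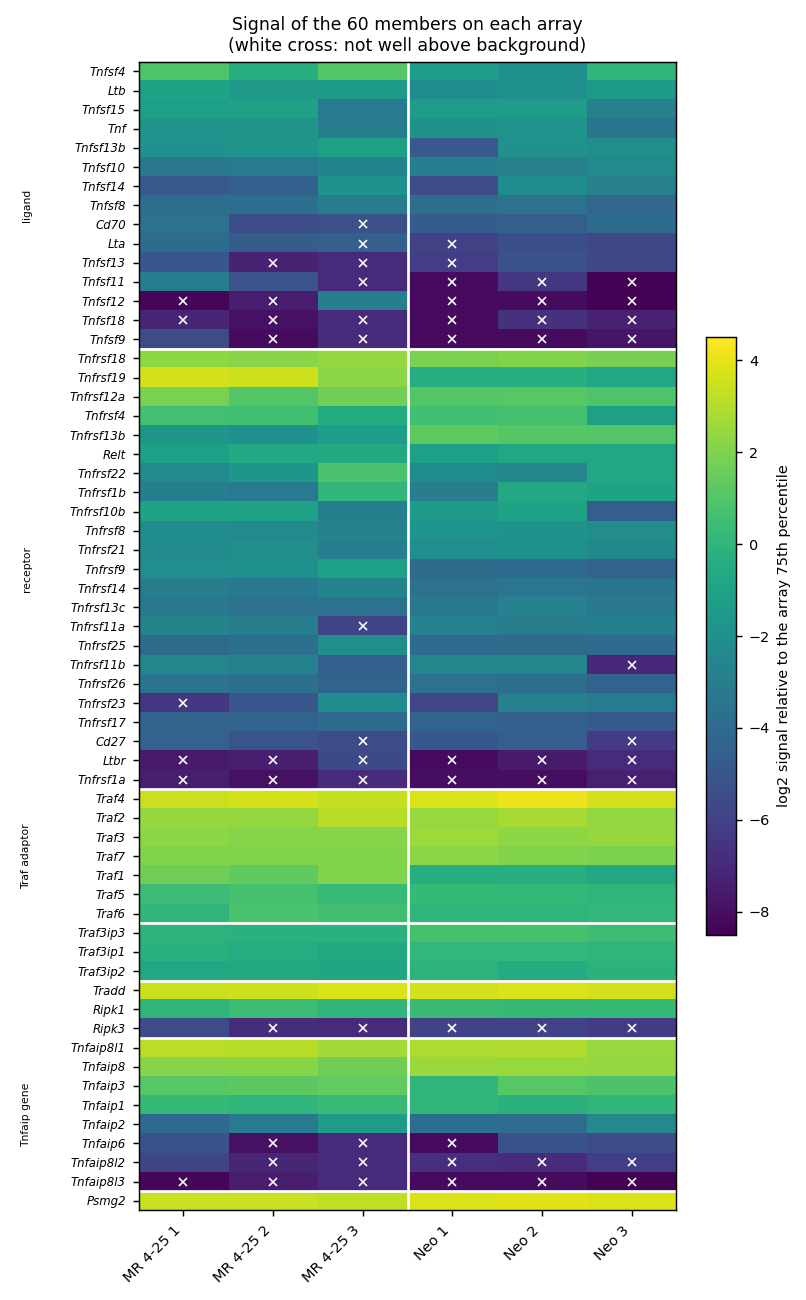
Log2 signal relative to the array's 75th percentile for the 60 members, by role (rows), on the 3 MR 4-25 and 3 Neo arrays (columns); colours compare arrays along a row, not genes with each other, and white crosses mark values not well above background. Tnfrsf19, Tnfrsf9 and Traf1 are brighter on the 3 MR 4-25 arrays, Tnfrsf13b is brighter on the 3 Neo arrays, and Ltbr, Tnfrsf1a, Tnfsf18 and Tnfaip8l3 are not well above background anywhere.

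The receptors held 3 of the 4 calls. Tnfrsf19, which encodes TROY, a receptor known from the developing nervous system and skin, had 3.60, 3.50 and 2.23 in MR 4-25 against -0.46, -0.36 and -0.76 in Neo. All MR 4-25 arrays were above all Neo arrays, with MR 4-25 3 the lowest of its line. Tnfrsf19 rose by 3.64 ± 0.42 (SE, n = 3 per line), or 12.5-fold, with an adjusted p of 0.0291 from limma. Its other probe had -3.08, -3.48 and -1.87 in MR 4-25 against -6.77, -5.73 and -4.76 in Neo. That probe was also higher on every MR 4-25 array, by 2.95 ± 0.66 (SE, n = 3 per line), but did not pass over all probes (limma adjusted p = 0.144). Neo 1 was not well above background there, so the size of that difference is uncertain.

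Tnfrsf9, which encodes the costimulatory receptor 4-1BB, had -2.11, -1.99 and -1.06 in MR 4-25 against -4.00, -3.97 and -4.38 in Neo at its brightest probe. The lines did not overlap, and Tnfrsf9 rose by 2.40 ± 0.33 (SE, n = 3 per line), or 5.27-fold. Its adjusted p of 0.04997 from limma lay just under the threshold. At the other probe the values were -3.79, -5.29 and -1.27 in MR 4-25 against -4.92, -4.69 and -2.30 in Neo. MR 4-25 2 was not well above background there, the lines overlapped, both slide 2 arrays were the highest, and the difference was 0.52 ± 1.25 (SE, n = 3 arrays a line; adjusted p over all probes by limma 0.896). The rise of Tnfrsf9 therefore rests on 1 of its 2 probes.

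Tnfrsf13b, which encodes TACI, a receptor for BAFF and APRIL known mainly from B cells, had -1.62, -1.94 and -1.26 in MR 4-25 against 1.25, 1.06 and 1.05 in Neo. Every MR 4-25 array was below every Neo array. The difference was -2.72 ± 0.22 (SE, n = 3 per line), 6.61-fold lower in MR 4-25, with an adjusted p of 0.0127 from limma. Its other probe had -4.24, -4.87 and -6.77 in MR 4-25 against -3.91, -3.81 and -5.10 in Neo, so the lines overlapped, with Neo 3 below MR 4-25 1 and MR 4-25 2, and MR 4-25 3 was not well above background. The difference there was -1.02 ± 0.76 (SE, n = 3 arrays a line), with an adjusted p over all probes of 0.630 by limma. The Tnfrsf13b call therefore rests on 1 of its 2 probes.

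Of 7 B cell markers, 1 fell and 6 did not pass, and 4 had signals well above background on every array. The marker that fell was Blnk, an adaptor of the B cell receptor, by 1.90 on the log2 scale (limma adjusted p = 0.0408). The summed signal of the list, with the array's 75th percentile as 1, was 1.09 to 1.69 in MR 4-25 and 1.24 to 1.36 in Neo, and its part in the Tnfrsf13b result was not tested. The Blnk call did not hold with median scaling (adjusted p = 0.0561), with the replicate number as a block (0.114) or without any 1 array (limma adjusted p of 0.0516 to 0.217).

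Of the 11 T cell markers none passed, with 5 above 0 and 6 below. Cd3e, Lat and Lck lay lower on every MR 4-25 array, at -0.28, -0.81 and -0.51, and Cd2 higher, at 1.04. The summed T cell signal was 253 to 284 in MR 4-25 and 280 to 323 in Neo. Of 7 myeloid, 3 measured NK and 4 fibroblast markers none passed, and the NK marker Klrk1 was not well above background on any array. The myeloid marker Lyz2 differed by 1.06 without overlap (limma adjusted p = 0.0553), and Cd68 and the fibroblast marker Dcn also lay higher on every MR 4-25 array. Of the 7 myeloid markers 5 were above 0 and 2 below, Cd14 at -1.03 and Itgam at -0.43, both overlapping between lines. The 4 fibroblast markers were all above 0, with a median difference of 0.74 and a summed signal of 0.782 to 1.32 in MR 4-25 and 0.555 to 1.06 in Neo. The summed myeloid signal was 1.77 to 2.25 in MR 4-25 and 1.18 to 1.75 in Neo, and the part of these markers in the results was not tested.

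**Figure D2:**
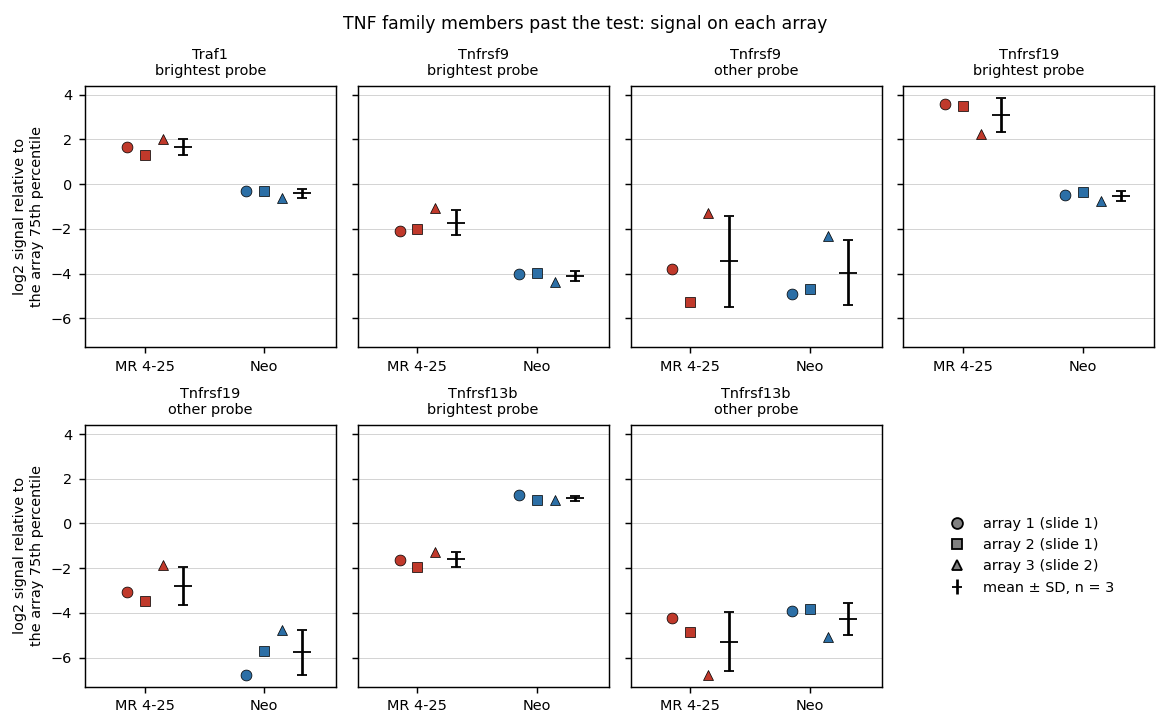
Log2 signal relative to the array's 75th percentile on each array for the 7 probes of the 4 members that passed the test, MR 4-25 left of Neo; bars show the mean and SD over 3 arrays, and symbols give the array number. The brightest probes separate the lines, as does the other Tnfrsf19 probe, while the other probes of Tnfrsf9 and Tnfrsf13b overlap.

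The TNF receptors themselves gave no uniform picture. Tnfrsf1a, the death-domain TNF receptor of most cells, and Ltbr, the lymphotoxin beta receptor, were not well above background on any array. Tnfrsf1b, the TNF receptor without a death domain and the main one of T cells, had 2 measured probes. The brightest had -2.87, -3.11 and 0.07 in MR 4-25 against -2.93, -0.63 and -0.98 in Neo, with the lines overlapping and MR 4-25 3 the highest array. Its difference was -0.46 ± 1.09 (SE, n = 3 arrays a line; adjusted p by limma = 0.906). The dimmer probe, printed on 10 spots of each array, had -5.09, -4.88 and -4.65 in MR 4-25 against -3.65, -3.64 and -3.58 in Neo. There all MR 4-25 arrays were below all Neo arrays, and the probe fell by 1.25 ± 0.17 on the log2 scale (SE, n = 3 per line), with an adjusted p of 0.0452 from limma over all probes. It did not pass with the replicate block (adjusted p = 0.157) or without any 1 array other than MR 4-25 3 (0.166 to 0.231), and passed without MR 4-25 3 (0.0405, limma), settings added after the data were seen. Over all 30959 measured probes, 1.30% passed that test.

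The other 17 measured receptors that did not pass had differences from -0.96 for Tnfrsf11a, which encodes RANK, to 0.71 for Tnfrsf11b, which encodes the RANKL decoy osteoprotegerin. In these 2 the lines differed mainly on slide 2: MR 4-25 3 was at -5.86 for Tnfrsf11a, against -2.89 in Neo 3, and at -4.62 for Tnfrsf11b, against -6.98 in Neo 3. The lower value of each pair was not well above background, so the differences on slide 2 and over all arrays have no exact size. On slide 1 the differences were 0.05 for Tnfrsf11a and -0.12 for Tnfrsf11b. Smaller but non-overlapping differences were found for Tnfrsf14, the LIGHT receptor HVEM, at 0.55, and for Tnfrsf18, the costimulatory receptor GITR, at 0.38. Tnfrsf8, which encodes CD30, at -0.51, and Tnfrsf13c, the BAFF receptor, at -0.43, did not overlap in the other direction. The adjusted p of these 4 was 0.364 to 0.490 (limma). The other measured probe of Tnfrsf14 overlapped between lines, at 0.13. The costimulatory receptors Tnfrsf4, or OX40, at 0.17, and Cd27, at 0.22, overlapped between lines.

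Set side by side, ligands and their receptors did not show 1 shared direction. For 4-1BB the receptor Tnfrsf9 rose while the ligand Tnfsf9 was not measured. For OX40 the ligand Tnfsf4 differed by 1.63 and the receptor Tnfrsf4 by 0.17, and neither passed. In the BAFF and APRIL group Tnfrsf13b fell, while Tnfrsf13c at -0.43 and Tnfrsf17, which encodes BCMA, at 0.33 did not pass. The ligands Tnfsf13b at 1.37 and Tnfsf13 at -0.68 did not pass either, and the Tnfsf13 value has no exact size. For TRAIL the ligand Tnfsf10 was at -0.34, the death receptor Tnfrsf10b at 0.67 and the mouse decoy receptors Tnfrsf22 and Tnfrsf23 at 0.69 and -0.65. The standard errors of these 3 receptors were 0.95 to 1.36. The other measured probe of Tnfrsf10b lay on the other side of 0, at -1.43 ± 1.42 (SE, n = 3 per line), and overlapped between lines.

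**Figure D3:**
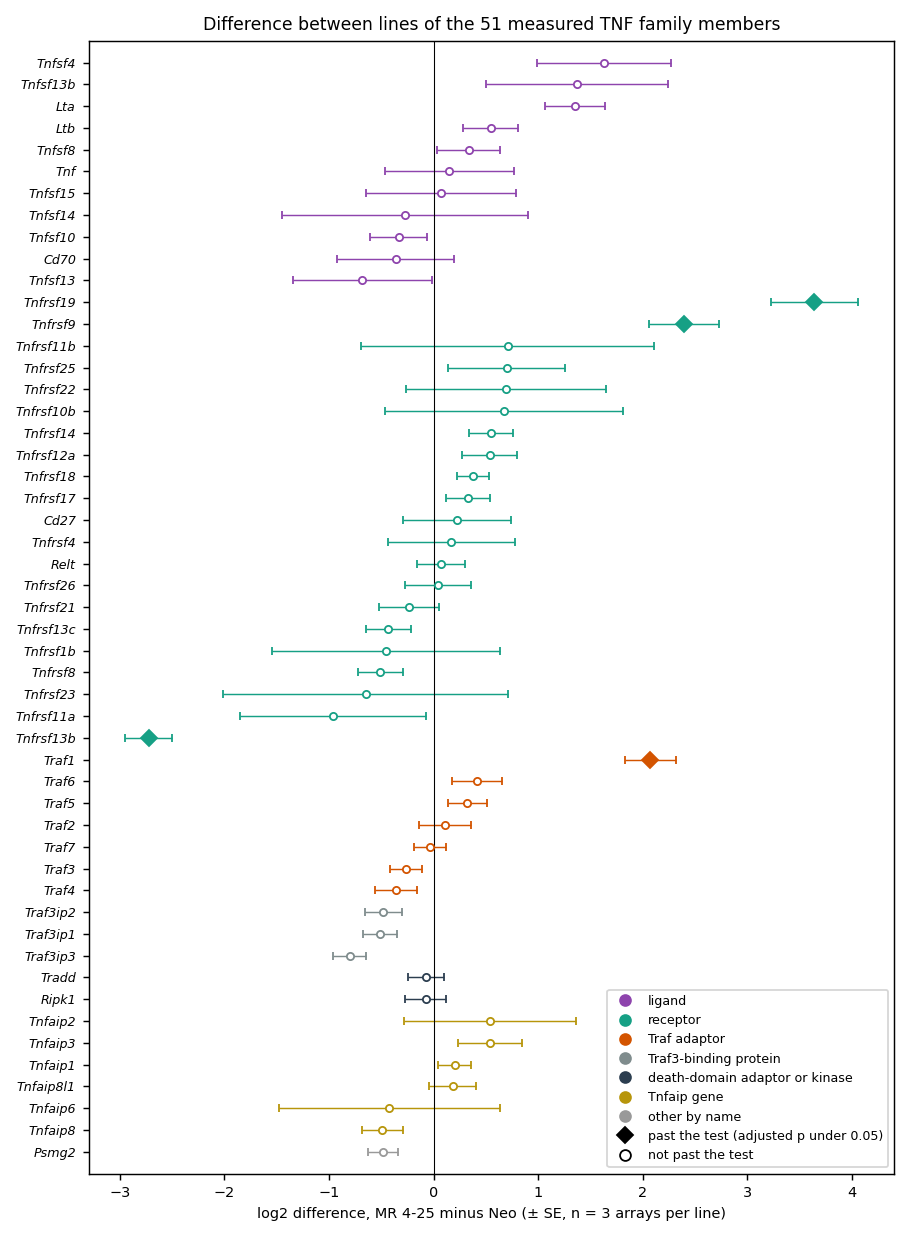
Log2 difference, MR 4-25 minus Neo, with its SE for the 51 measured members (n = 3 arrays per line), ordered by role; filled diamonds passed the test over all genes. Of the 51, 29 lie above 0 and 22 below, and the 4 that passed lie at 3.64, 2.40, 2.07 and -2.72.

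Among the 7 Traf adaptors 1 passed. Traf1, an adaptor that lacks the RING finger of most Traf proteins and works in complexes with Traf2, had 1.67, 1.31 and 2.03 in MR 4-25 against -0.29, -0.28 and -0.63 in Neo. The lines were well separated, and Traf1 rose by 2.07 ± 0.24 (SE, n = 3 per line), or 4.21-fold, with an adjusted p of 0.0320 from limma. Traf1 had 1 probe, so no other probe bears on it.

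Traf2, the adaptor that 4-1BB and Tnfrsf1b bind, had 2.45, 2.45 and 3.10 in MR 4-25 against 2.52, 2.78 and 2.39 in Neo. The lines overlapped, and the difference of 0.11 had a 95% interval of -0.52 to 0.73 (limma adjusted p = 0.905). Traf3, which restrains the noncanonical NF-kB pathway, had 2.27, 2.13 and 2.15 in MR 4-25 against 2.58, 2.30 and 2.46 in Neo. Its MR 4-25 arrays were all below its Neo arrays by a small margin, with a difference of -0.26 (limma adjusted p = 0.563).

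Traf6, the adaptor shared with interleukin 1 and Toll-like receptors, had 0.04, 0.83 and 0.54 in MR 4-25 against 0.05, -0.01 and 0.13 in Neo. MR 4-25 1 lay among the Neo arrays, the difference was 0.41 (limma adjusted p = 0.565), and its other measured probe was at -0.12. Traf4, Traf5 and Traf7 differed by -0.36, 0.32 and -0.03, and none passed.

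The 3 Traf3-binding proteins were lower on every MR 4-25 array than on any Neo array, but none passed over all genes. Over all genes 13.1% lay below in this way. Traf3ip3, a Traf3 partner known from lymphocytes, had -0.09, -0.21 and -0.22 in MR 4-25 against 0.71, 0.73 and 0.44 in Neo, a difference of -0.80 ± 0.16 (SE, n = 3 arrays a line; adjusted p by limma = 0.117). Its adjusted p passed the threshold in 3 of 18 alternative settings. Traf3ip1, a protein of ciliary transport, had -0.25, -0.45 and -0.63 in MR 4-25 against 0.10, 0.09 and 0.02 in Neo, and differed by -0.52 (limma adjusted p = 0.266), while its other measured probe overlapped between lines at -0.41. Traf3ip2, the interleukin 17 receptor adaptor Act1, differed by -0.48 (limma adjusted p = 0.344).

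The adaptor and kinases of the TNF receptor complex gave no call. Tradd had 3.46, 3.49 and 3.83 in MR 4-25 against 3.64, 3.77 and 3.60 in Neo, an overlapping difference of -0.07 with a 95% interval of -0.51 to 0.36. Ripk1, the kinase that stands between survival and death signalling, had -0.02, 0.48 and 0.06 in MR 4-25 against 0.37, 0.19 and 0.20 in Neo, a difference of -0.08 with a 95% interval of -0.57 to 0.41. The other measured probes of Ripk1 differed by -0.39, with every MR 4-25 array below every Neo array, and by -0.24, with overlap. Changes within these intervals cannot be told from none with 3 arrays per line. Ripk3, the kinase of necroptosis, was well above background on 1 MR 4-25 array and on 0 Neo arrays.

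None of the 6 measured Tnfaip genes passed. Tnfaip3, which encodes the NF-kB inhibitor A20, had 1.14, 1.20 and 1.36 in MR 4-25 against 0.08, 1.13 and 0.87 in Neo. The lines did not overlap, but MR 4-25 1 and Neo 2 nearly met, and the difference of 0.54 had an adjusted p of 0.555 (limma). Tnfaip2 had -4.04, -3.11 and -1.30 in MR 4-25 against -3.82, -3.83 and -2.41 in Neo, with both slide 2 arrays the highest and a difference of 0.54 (limma adjusted p = 0.843). Tnfaip8, known as a regulator of cell survival, had 2.13, 2.20 and 1.68 in MR 4-25 against 2.56, 2.47 and 2.45 in Neo. It was lower on every MR 4-25 array, by 0.49 on the log2 scale, without passing (limma adjusted p = 0.376).

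Tnfaip1, Tnfaip6 and Tnfaip8l1 differed by 0.20, -0.42 and 0.18, and Tnfaip8l2 and Tnfaip8l3 were not measured. Psmg2 had 3.39, 3.43 and 3.23 in MR 4-25 against 3.82, 3.91 and 3.77 in Neo, non-overlapping with a difference of -0.49 (limma adjusted p = 0.242).

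Across the 51 measured members the median difference was 0.11, against 0.01 over all genes, and the median size of the difference was 0.46, against 0.37 over all genes. In 9 members, 17.6%, all MR 4-25 arrays were above all Neo arrays, and in 9 they were all below. Without Neo 3 the members' median was -0.11 and that of all genes -0.12, and the members' median was 0.23 without Neo 1 and 0.28 without Neo 2. Over all genes the non-overlapping shares were 11.2% above and 13.1% below, 24.3% in all. An unadjusted p under 0.05 was reached by 12 members, 6 in each direction, and by 2830 of 21336 genes (limma).

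Of the 60 members, 16 had more than 1 probe and 12 had more than 1 measured probe. The brightest probe and another measured probe lay on opposite sides of 0 for Tnfrsf10b, Tnfrsf21 and Traf6, none of which passed on any probe. The measured probes of Psmg2, Ripk1, Tnfrsf14, Tnfrsf1b, Traf3ip1 and Traf4 had 1 sign each, as did those of Tnfrsf9, Tnfrsf13b and Tnfrsf19.

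**Figure D4:**
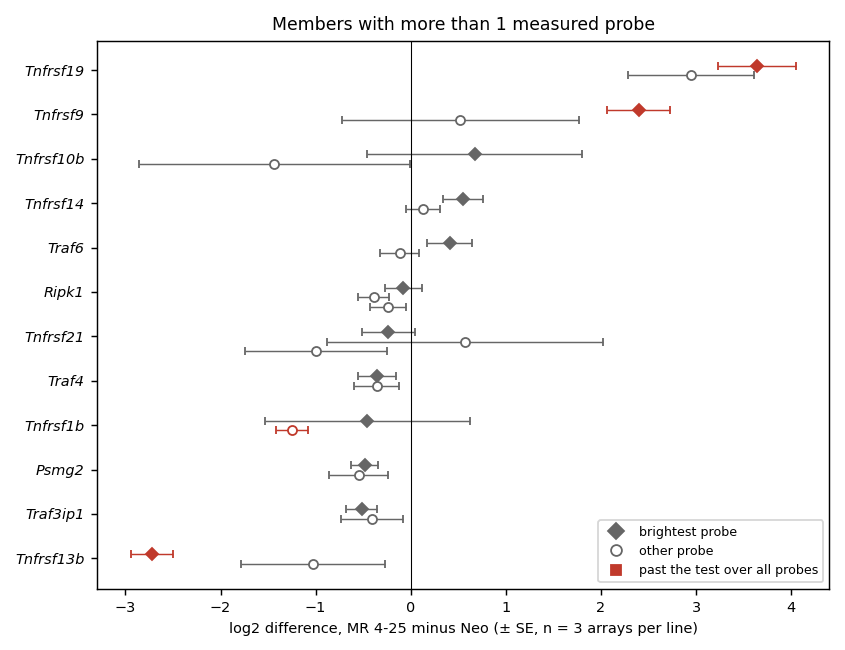
Log2 difference, MR 4-25 minus Neo, with its SE for every measured probe of the 12 members with more than 1 (n = 3 arrays per line); diamonds are the brightest probe, circles the others, and red marks an adjusted p under 0.05 over all probes. Probe pairs of Traf4 and Psmg2 nearly coincide, while those of Tnfrsf9 and Tnfrsf13b lie apart at 2.40 and 0.52 and at -2.72 and -1.02.

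The arrays of MR 4-25 1, MR 4-25 2, Neo 1 and Neo 2 shared 1 slide and those of MR 4-25 3 and Neo 3 another, scanned at another time. MR 4-25 3 was dimmer, with a 75th percentile of 521 intensity units against 844 to 988 on the others and 61.3% of probes well above background against 69.9% to 76.2%. Array correlations across genes, which are not independent replicates, ran from 0.888 to 0.984, and MR 4-25 3 was closer to Neo 3 than to its own line. The 4 members that passed kept their sign within each slide. Traf1 differed by 1.78 on slide 1 and 2.67 on slide 2, Tnfrsf9 by 1.94 and 3.31, Tnfrsf19 by 3.96 and 2.99, and Tnfrsf13b by -2.94 and -2.30. Of the 51 members, 36 had 1 sign on both slides, 70.6%, against 63.2% of all genes.

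**Figure D5:**
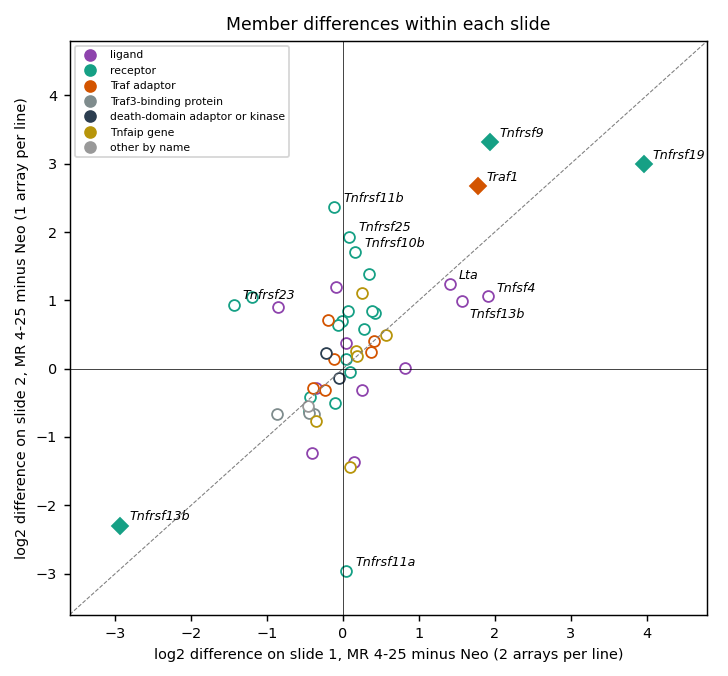
Log2 difference, MR 4-25 minus Neo, of the 51 measured members on slide 1 (horizontal axis, 2 arrays per line) and slide 2 (vertical axis, 1 array per line); diamonds passed the test and the dashed line marks equal values. The 4 diamonds lie in the quadrants of equal sign, and Tnfrsf11a and Tnfrsf11b lie near 0 on slide 1 and far from it on slide 2.

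The 4 calls depended on the fit. With the replicate number as a block none passed, at adjusted p of 0.105 for Tnfrsf13b, 0.105 for Tnfrsf19, 0.161 for Traf1 and 0.192 for Tnfrsf9 (limma), and 1 gene of 21336 then passed. All 4 passed without MR 4-25 3, and none passed without any 1 of the other 5 arrays. In these fits with 1 array left out, the differences stayed within 1.89 to 2.25 for Traf1 and 3.39 to 4.08 for Tnfrsf19. They stayed within -2.90 to -2.55 for Tnfrsf13b and 2.07 to 2.59 for Tnfrsf9.

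Genes of the pathway outside the name pattern were read from lists. Of 10 other TNF superfamily genes and their adaptors, 1 rose, 0 fell and 9 did not pass. The one that rose was Fas, the death receptor, with 1.83, 1.56 and 1.64 in MR 4-25 against 0.40, 0.51 and 0.52 in Neo, a difference of 1.20 ± 0.15 (SE, n = 3 arrays a line; adjusted p by limma = 0.0373). With the mean over its probes Fas differed by 0.60 and did not pass (limma adjusted p = 0.325). Cd40, a costimulatory receptor of antigen-presenting cells, differed by 1.27 with an adjusted p of 0.131, and Edaradd, the death-domain adaptor of the ectodysplasin receptor, by -0.88 with an adjusted p of 0.129 (limma).

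Of 33 measured genes of NF-kB signalling, 1 rose, 0 fell and 32 did not pass, with a median difference of -0.01. The one that rose was Relb, the NF-kB subunit of the noncanonical pathway, with 3.39, 3.03 and 3.44 in MR 4-25 against 1.87, 1.86 and 1.91 in Neo. Relb rose by 1.41 ± 0.17 (SE, n = 3 per line), with an adjusted p of 0.0351 from limma. Nfkb2, its partner subunit, Birc3, an inhibitor of apoptosis that binds Traf2, and Nfkbia, the inhibitor of canonical NF-kB, differed by 0.94, 0.86 and 0.73, did not overlap between lines and did not pass (limma adjusted p of 0.114 to 0.197). Nfkbie, another NF-kB inhibitor, differed in the other direction by -0.65, also without overlap and without passing (limma adjusted p = 0.190). The Fas and Relb calls were lost without any 1 array, at adjusted p of 0.0616 to 0.226 for Fas and 0.0625 to 0.208 for Relb, and with the replicate block, at 0.172 for Fas and 0.149 for Relb (limma).

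Of 10 measured genes of the death branch, which includes Casp8, Cflar and Fadd, none passed, with a median difference of -0.19 and 9 of 10 below 0. Bid, which links death receptors to mitochondria, differed by -0.62 without overlap between lines (limma adjusted p = 0.238).

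Promoter sequence from RefSeq, build GRCm38.p6, from 250 bases before to 50 after the start, was given for 48 of the 60 members as 54 promoters. It was searched on both strands for the NF-kB consensus motif and for the AP-1 motif TGANTCA. The NF-kB consensus was found in 14.81% of member promoters, 8 of 54, and in 8.46% of all 32851 promoters, and AP-1 also in 8 of 54, against 7.81% of all promoters. Of the members that passed, only Tnfrsf9 held a match, in 1 of its 2 promoters, at chr4:150927749-150928048 on the forward strand. It held both motifs, shown in capitals with the NF-kB consensus first: 2 overlapping NF-kB matches, starting 43 and 42 bases before the start, and an AP-1 match starting 15 bases before it. The promoter of Traf1, at chr2:34961723-34962022 on the reverse strand, is shown beside it as that of a gene that also rose, and held neither motif in this window.
Tnfrsf9 promoter: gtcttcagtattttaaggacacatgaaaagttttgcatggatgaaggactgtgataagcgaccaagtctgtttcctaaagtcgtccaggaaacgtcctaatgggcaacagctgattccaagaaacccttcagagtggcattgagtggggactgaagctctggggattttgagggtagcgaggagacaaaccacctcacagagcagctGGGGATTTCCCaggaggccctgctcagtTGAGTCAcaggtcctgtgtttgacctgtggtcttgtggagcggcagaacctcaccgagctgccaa
Traf1 promoter: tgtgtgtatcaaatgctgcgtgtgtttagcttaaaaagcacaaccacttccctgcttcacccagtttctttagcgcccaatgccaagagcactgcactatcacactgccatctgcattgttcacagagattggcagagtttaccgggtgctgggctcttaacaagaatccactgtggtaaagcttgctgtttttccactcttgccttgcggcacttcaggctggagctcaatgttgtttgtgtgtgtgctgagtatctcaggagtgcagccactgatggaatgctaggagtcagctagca
The other member promoters with the NF-kB consensus were those of Ltb, Tnfaip2, Tnfaip3, Tnfaip8l1, Tnfrsf25, Tnfrsf8 and Traf3, none of which passed the test. A match describes the letters of the window and not binding.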

How the data were processed

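The deposited files hold background-corrected Cy3 intensity values for every spot. The software was Agilent Feature Extraction, version 9.5.3.1 in the file headers and 9.5 in the submitters' processing notes. A deposited table of values for the series was identical to them. Total RNA was DNase-treated, per the labels' protocols. Control and outlier spots were left out, log2 signals of a probe's spots were averaged, and each array's 75th percentile was subtracted. A probe was kept if well above background on 3 or more arrays, leaving 30959 probes and, by the brightest probe, 21336 genes. MR 4-25 and Neo were then compared by lmFit and eBayes of limma 3.58.1 in R 4.3.3, adjusted by Benjamini-Hochberg over all genes at a threshold of 0.05, and tested on simulated data. Figures were drawn with matplotlib 3.10.9.

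The members, lists and tests were chosen with earlier results of these data known. Full values are given for members past the test and for named core genes of TNF signalling. They are also given for the members of largest absolute difference in each role. Others named in the text, Relb, Fas and Blnk among them, were chosen after their values were seen or because they passed.

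Same-numbered arrays deviated together across genes, with correlations of 0.29, 0.21 and 0.56. Crossed arrays of slide 1 also correlated, at 0.38 and 0.41, so these values do not show that arrays pair by number. The main fit had no block, and a fit with the replicate block is given where it changes a call. Slide and number were not separated. Alternatives changed the background correction, normalization, scaling, filter, probe choice, variance model and blocks, or left out 1 array.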

Additional observations from a re-analysis of the deposited data

How the results depend on the processing

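The limits lie in 3 arrays per line, 1 dim array and a slide that also separates replicate 3. In 18 alternative settings the differences of Tnfrsf19, Tnfrsf9, Traf1 and Tnfrsf13b kept their direction, but their sizes varied. They ran from 3.29 to 4.08 for Tnfrsf19, 1.30 to 2.59 for Tnfrsf9, 1.70 to 2.25 for Traf1 and -3.05 to -1.87 for Tnfrsf13b. The smallest Tnfrsf9 difference, 1.30, came with normexp and quantile normalization. Over all genes, against 144 higher and 119 lower, normexp with quantile normalization gave 277 and 236, a filter on all 6 arrays 289 and 235, an intensity trend with robust fit 367 and 351, array quality weights 942 and 1074, slide 1 alone 61 and 63, and no filter 92 higher. Of the members, 2 were lower with the filter on all 6 arrays and with the trend, which added Traf3ip3, 4 were lower and 4 higher with array quality weights, which added Lta, Traf3ip1, Traf3ip3 and Psmg2, and 0 were lower with the mean over probes. With the replicate block, 1 gene was higher and 0 lower, and 0 members passed in either direction. Leaving out 1 array gave 0 to 92 genes higher and 0 to 131 lower, 0 to 3 members higher and 0 to 1 lower, and a members' median of -0.11 to 0.28. Tnfrsf9 also missed the threshold with slide as a block (adjusted p = 0.0561), median scaling (0.0582), no filter (0.0713) and the mean over probes (0.493), Tnfrsf13b with the mean over probes (0.114) and Traf1 on slide 1 alone (0.0772, limma). The causes were not tested. Of the 51 measured members, 43 were well above background on all 6 arrays. Lta, Tnfsf13, Tnfaip6, Cd27, Cd70, Tnfrsf11a, Tnfrsf11b and Tnfrsf23 were not.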
